A study of Mus musculus with 6 samples.

Results

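Aminoacyl-tRNA synthetases and the scaffold proteins that hold some of them together were followed in mouse B cells before and after stimulation through TLR9. The group holds 39 genes, chosen by symbol and not by their values: 20 synthetases of the cytosol, 16 synthetases of the mitochondria (symbols ending in 2), and 3 scaffold proteins of the multi-tRNA synthetase complex, Aimp1, Aimp2 and Eef1e1. All 39 were among the 23420 genes in the files, and all 39 were among the 11233 genes that passed the filter on low values and were tested.

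The samples were B cells purified with beads from spleens of BALB/c mice, wild-type and aged 7 to 11 weeks, in a study of how TLR7 and TLR9 signal in autoimmunity. In 3 samples the cells were kept with the TLR9 agonist CpG ODN 1826, a synthetic DNA with unmethylated CpG motifs, at 10 µg/mL for 4 hours, and in 3 samples they were left unstimulated; each culture held 10 M cells at 10 M cells per mL. The labels name no altered allele and no other agent in either group. Replicates 1 and 2 of each group were labelled female and replicate 3 male, and the labels name 3 mice without saying which samples share a mouse, so p-values here measure the spread between these samples.

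Each synthetase joins 1 amino acid to its tRNAs, the step that sets which amino acid a codon stands for. Cells make proteins in the cytosol and in mitochondria, and for most amino acids a separate nuclear gene encodes the enzyme of each compartment. Kars and Gars, which charge tRNAs for lysine and glycine, each encode the enzymes of both compartments, and Eprs carries the glutamate and proline activities in a single protein. A set of cytosolic enzymes sits with the 3 scaffold proteins in the multi-tRNA synthetase complex. B cells leaving the resting state grow and raise their protein synthesis, which uses charged tRNAs.

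Expression is given as log2 CPM (log2 of read counts scaled to 1 M reads), as deposited after quantile normalization and voom. The normalization gives every sample nearly the same distribution, which hides any change in the amount of RNA per cell, and in bulk samples fewer cells of a type and less RNA per cell cannot be told apart. The values fixed a common library size of 17.8 M reads for all 6 samples, not the depth of each. The lowest value of any of these genes, 1.91 for Cars2 in CpG-stimulated replicate 1, stood for about 66.2 reads at that common size. The reads counted in each sample cannot be read from these values. The SE of the log2FC of Cars2 was 0.16, beside a median of 0.10 over all genes tested. All 8 B cell markers were well above 10 reads, with sums of 2948 to 3366 CPM in CpG-stimulated and 3950 to 4575 CPM in unstimulated samples. T cell markers summed to at most 0.632 CPM and NK cell markers to 0.688 to 1.31 CPM in CpG-stimulated and 0.130 to 0.220 CPM in unstimulated samples, with Cd3e, Cd4, Ncr1 and Eomes at or under 3 reads in all samples. Of 5 myeloid markers in the files, 4 averaged at least 10 reads, with sums of 9.98 to 15.3 CPM and 7.16 to 13.8 CPM. Plasmacytoid dendritic cell markers, of which 3 of 4 averaged 10 reads, were lower after CpG, with sums of 127 to 134 CPM against 252 to 261 CPM. Erythroid markers varied most between libraries of 1 group, from 384 to 4912 CPM after CpG and from 404 to 3845 CPM without, with 4 of 6 at 10 reads on average and Hba-a1 and Hbb-b1 at or under 3 reads in all samples. Which cells the reads of these markers came from cannot be told from bulk samples. The part of other cells in the results was not tested.

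After 4 hours of CpG, most cytosolic synthetases had risen and the mitochondrial ones were divided. Log2 fold changes (log2FC) of CpG-stimulated over unstimulated samples were tested with limma, two-sided, and a gene was called at a false discovery rate (FDR) under 0.05 over all genes tested. Of the 20 cytosolic synthetases, 18 increased, 1 decreased (Qars) and 1 did not pass (Vars), with a median log2FC of 1.17. Among all genes tested, 37.6% increased and 36.7% decreased, with a median log2FC of 0.0033. Of the 16 mitochondrial synthetases, 9 increased, 3 decreased (Cars2, Fars2 and Hars2) and 4 did not pass, with a median log2FC of 0.29. All 3 scaffold genes increased. A log2FC over 1 was reached by 13 cytosolic synthetases, 2 mitochondrial synthetases and 2 scaffold genes, against 15.8% of all genes tested. In 18 cytosolic genes every CpG-stimulated sample was above every unstimulated one, and in Qars every one was below; 39.1% of all genes tested were separated upwards in this way and 38.6% downwards. In the mitochondrial set, 8 genes were separated upwards, 3 downwards, and 5 overlapped, among them Wars2, which passed the test.

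**Figure D1:**
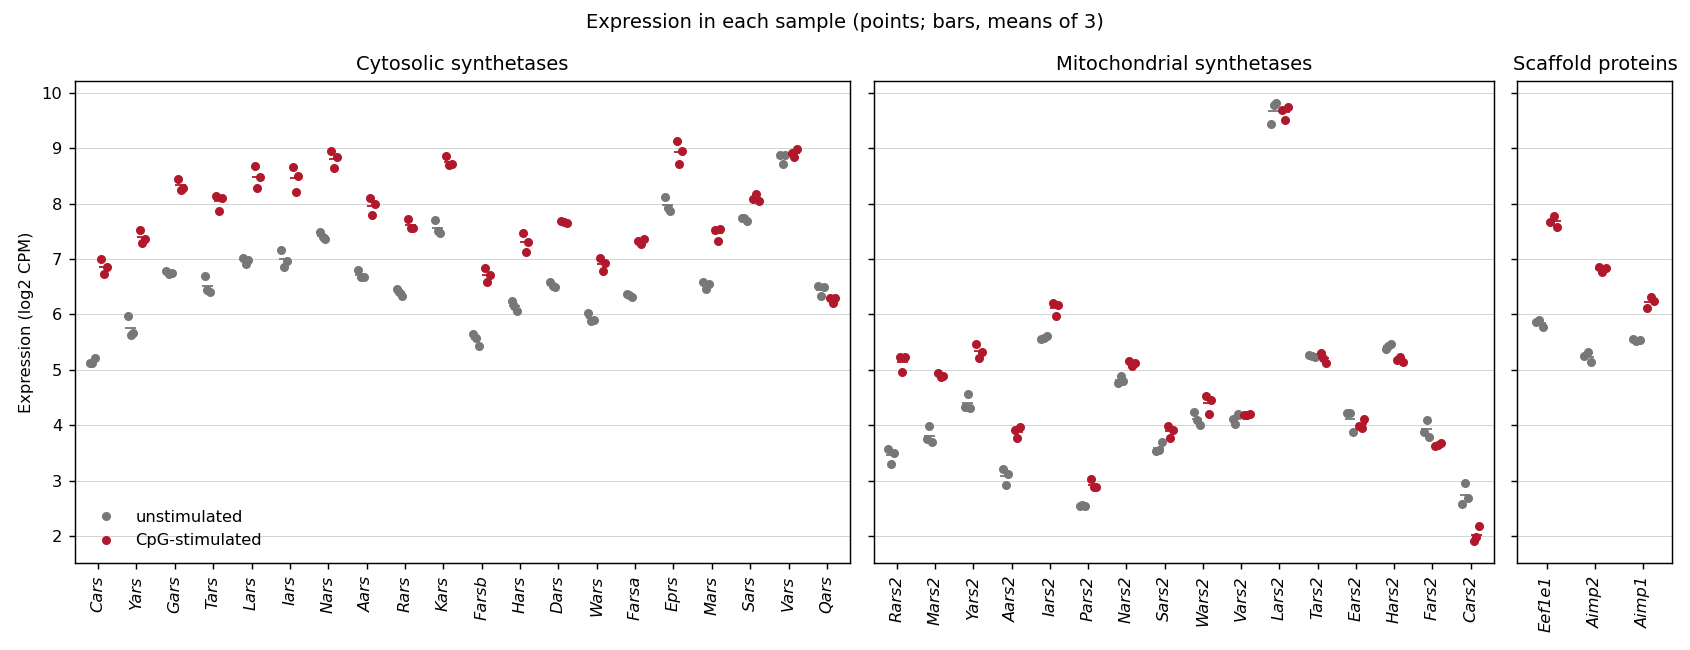
Expression in log2 CPM (vertical axis) of the 39 genes in each of the 6 samples, as grey points for unstimulated and red points for CpG-stimulated samples, with a short bar at the mean of 3. Red points stand above grey ones in 18 of 20 cytosolic synthetases and in 8 of 16 mitochondrial ones, and the mitochondrial enzyme Lars2 lies far above the rest of its set in every sample.

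The 6 cytosolic enzymes with the largest changes had log2FC values of 1.47 to 1.71. Cars (chr7:143557230-143600090, minus strand, GRCm38), which charges cysteine tRNAs, measured 6.99, 6.73 and 6.86 log2 CPM in CpG-stimulated replicates 1 to 3 and 5.12, 5.12 and 5.22 in unstimulated replicates 1 to 3. It had the lowest unstimulated level per kilobase of transcript among the 20 genes and the largest increase, with a log2FC of 1.71 ± 0.080 (SE, n = 3 per group; FDR = 6.15e-08). Yars (chr4:129189760-129219607, plus strand), the tyrosine enzyme, measured 7.53, 7.30 and 7.36 after CpG and 5.97, 5.64 and 5.66 without. The groups were well apart, at a log2FC of 1.64 ± 0.10 (SE; FDR = 2.63e-07). Gars (chr6:55038007-55079500, plus strand), which makes the glycine enzyme of both compartments, measured 8.45, 8.25 and 8.29 after CpG and 6.78, 6.74 and 6.75 without. Its unstimulated samples were within 0.022 (SD) of their mean of 6.75, and the log2FC was 1.58 ± 0.066 (SE; FDR = 3.98e-08).

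Tars (chr15:11382301-11399665, minus strand), the threonine enzyme, measured 8.15, 7.88 and 8.11 after CpG and 6.70, 6.44 and 6.40 without, a log2FC of 1.53 ± 0.097 (SE; FDR = 3.54e-07). Lars, the leucine enzyme, measured 8.68, 8.29 and 8.49 after CpG and 7.03, 6.92 and 6.99 without, a log2FC of 1.51 ± 0.093 (SE; FDR = 2.82e-07). Iars (chr13:49682100-49734267, plus strand), the isoleucine enzyme, measured 8.67, 8.22 and 8.50 after CpG and 7.16, 6.86 and 6.97 without, a log2FC of 1.47 ± 0.11 (SE; FDR = 1.32e-06). In each of these 3 genes the lowest CpG-stimulated sample was replicate 2, and it was still more than 1 log2 unit above the highest unstimulated sample. The same order was common in the set: replicate 1 was the highest CpG-stimulated sample in 16 of 20 cytosolic genes and the highest unstimulated one in 19 of 20, compared with 37.6% and 36.4% of all genes tested. The deposited values carry a shift by replicate number, so no meaning was read from this order.

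A further 11 cytosolic enzymes rose with log2FC values of 0.93 to 1.39: Nars, for asparagine, by 1.39, Aars, for alanine, by 1.25, Rars, for arginine, by 1.22, Kars, for lysine, by 1.19, Farsb by 1.16, Hars, for histidine, by 1.15, Dars, for aspartate, by 1.13, Wars, for tryptophan, by 0.98, Farsa by 0.98, Eprs by 0.96, and Mars, for methionine, by 0.93. Farsa and Farsb make the subunits of the phenylalanine enzyme, which joins equal numbers of both. Per kilobase, the log2 ratio of Farsa to Farsb was 0.87, 0.94 and 1.03 in unstimulated replicates 1 to 3 and 0.65, 0.84 and 0.82 after CpG, so that Farsa stood above Farsb in all 6 samples and the groups did not overlap. Sars, the serine enzyme, rose less, from 7.74, 7.74 and 7.68 without CpG to 8.09, 8.18 and 8.05 with it, a log2FC of 0.39 ± 0.059 (SE; FDR = 0.000175). Some of these genes share exon sequence with others: 13.2% of 75-base stretches of Aars are also in Exosc6 or another gene, and Farsb, Hars and Mars overlap exons of Sgpp2, Hars2 and Ddit3 on the opposite strand. The library kit marks strand, but the strand setting of the counting was not given in the sources used here, so reads of such partners may have been counted together.

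Vars and Qars did not share the increase. Vars (chr17:35000987-35016322, plus strand), the valine enzyme, measured 8.91, 8.85 and 8.99 after CpG and 8.88, 8.72 and 8.88 without. The groups overlapped, and the difference of 0.09 had a 95% interval of -0.06 to 0.24 (FDR = 0.257). Qars (chr9:108507706-108515941, plus strand), the glutamine enzyme, measured 6.30, 6.21 and 6.30 after CpG and 6.51, 6.34 and 6.50 without. Every CpG-stimulated sample was lower, by a log2FC of -0.18 ± 0.069 (SE; FDR = 0.0379), but the call was lost without any of 5 of the 6 samples, with an FDR of up to 0.122. With the replicate number in the model as a block, the FDR of Qars was 0.0104.

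The levels of the cytosolic enzymes drew slightly closer together. Per kilobase of transcript, the lowest and the highest mean levels without CpG were 3.46 (Cars) and 6.78 (Vars) log2 CPM per kb, and after CpG they were 4.78 (Qars) and 7.63 (Kars). The SD over the 20 genes was 0.80 to 0.81 in the unstimulated samples and 0.71 to 0.73 in the CpG-stimulated ones, which did not overlap. In this order Qars moved from rank 13 to rank 20, Sars from 4 to 12 and Vars from 1 to 4, while Cars moved from 20 to 19. Lengths came from 1 annotated transcript per gene, and the isoforms used in these cells were not measured. Summed over the 20 genes, the cytosolic synthetases took 5572, 4749 and 5201 CPM after CpG and 2694, 2451 and 2491 CPM without, a ratio of the means of 2.03.

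Increases were found in every structural subset of the cytosolic enzymes. Synthetases fall into class I and class II by the fold of their catalytic domain, and Eprs belongs to both. Of 9 class I enzymes, 7 increased, 1 decreased and 1 did not pass, with a median log2FC of 1.22. All 10 class II enzymes increased, with a median of 1.17 and a range of 0.39 to 1.58. The enzymes that sit in the multi-tRNA synthetase complex are those for arginine, aspartate, glutamine, isoleucine, leucine, lysine and methionine, and Eprs. Of these 8, 7 increased and 1 decreased, with a median log2FC of 1.16, and of the 12 outside the complex 11 increased and 1 did not pass, with a median of 1.20. These counts stand beside 37.6% increased and 36.7% decreased among all genes tested, and no test was made between the subsets.

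The scaffold genes of the complex all rose, by different amounts. Eef1e1 (chr13:38644207-38659058, minus strand), also known as AIMP3 or p18, measured 7.67, 7.78 and 7.59 after CpG and 5.86, 5.89 and 5.78 without. Its log2FC of 1.84 ± 0.069 (SE; FDR = 2.62e-08) was the largest of the 39 genes and ranked 461 among all genes tested. Aimp2 (chr5:143902704-143909847, minus strand), which holds several synthetases in the complex, measured 6.86, 6.76 and 6.84 after CpG and 5.25, 5.32 and 5.15 without, a log2FC of 1.58 ± 0.070 (SE; FDR = 4.76e-08). Aimp1 (chr3:132660499-132684370, minus strand), whose product binds the arginine enzyme, measured 6.12, 6.32 and 6.24 after CpG and 5.55, 5.53 and 5.54 without, a smaller log2FC of 0.69 ± 0.070 (SE; FDR = 9.59e-06). The ranges were separate in each gene, and the 3 genes summed to 390, 408 and 382 CPM after CpG and 143, 145 and 137 CPM without. Aimp2 shares 25.1% of its 75-base stretches with Eif2ak1 on the opposite strand, and Aimp1 overlaps Tbck by 163 bases of exon. 

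**Figure D2:**
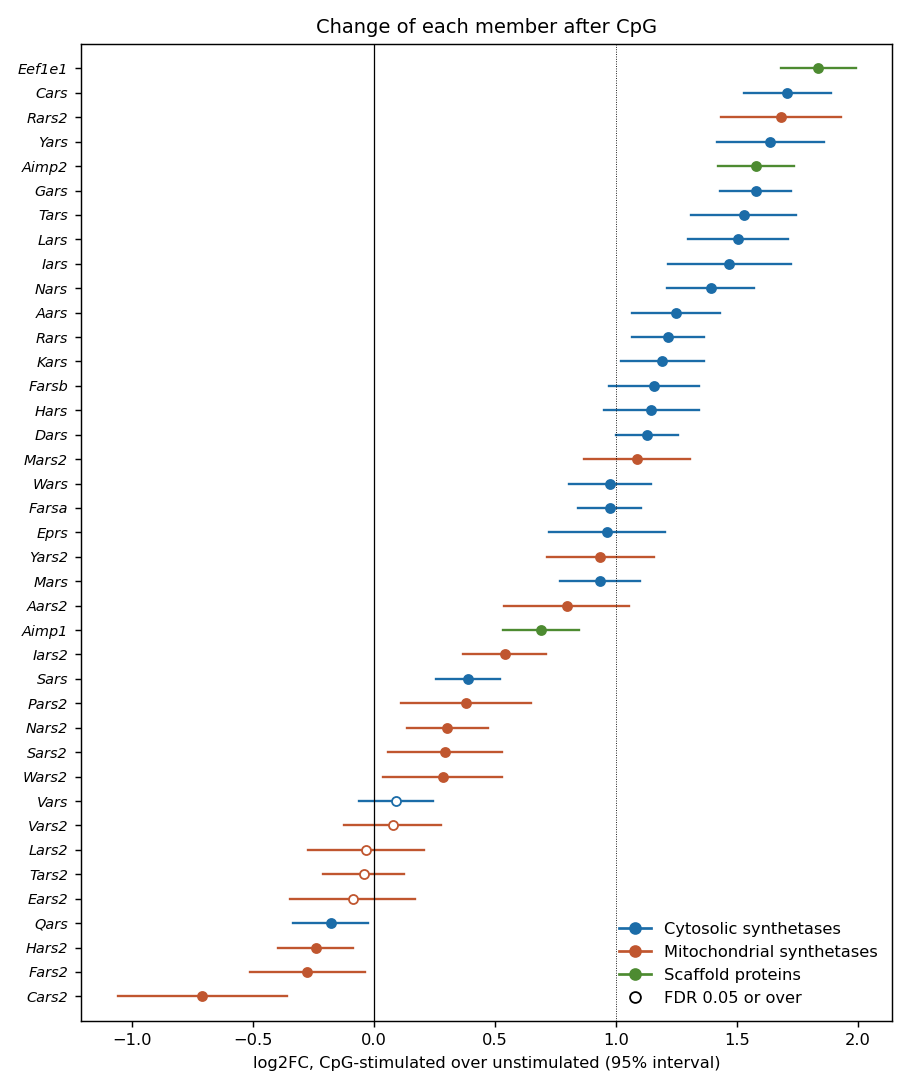
Log2FC of CpG-stimulated over unstimulated samples (horizontal axis) for the 39 genes in order, with bars for the 95% interval from limma (n = 3 per group), filled points for an FDR under 0.05, open points otherwise, and a dotted line at 1. Eef1e1 is at the top with 1.84 and Cars2 at the bottom with -0.71, and 5 open points lie near 0.

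Promoters of the cytosolic genes were searched for short motifs because the genes had moved together. The promoters were RefSeq windows (GRCm38.p6) of 250 bases before and 50 bases from the start of transcription, counted as position 1, and entries were found for 13 cytosolic, 14 mitochondrial and 3 scaffold genes. The letters TGATGNAA are the core of the composite element that ATF4, a transcription factor of the amino acid response, binds with its partners. CACGTG is the E-box bound by MYC and related factors. GCGCATGC is the core of the site of NRF1, a factor known for genes of mitochondrial function. Both strands were searched, and no 2 motifs overlapped in these genes. The ATF4 core was found in 5 of 13 cytosolic genes, 0 of 14 mitochondrial genes and 0 of 3 scaffold genes, and in 4.51% of all 27025 genes with an entry. The 5 genes and a stretch of 30 bases around a core of each, on the gene's own strand with the core in capitals, were:
Aars, position 10, chr8:111033840-111033869, plus strand: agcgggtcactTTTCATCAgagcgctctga
Gars, position -30, chr6:55037960-55037989, plus strand: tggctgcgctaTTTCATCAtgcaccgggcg
Iars, position 8, chr13:49682126-49682155, plus strand: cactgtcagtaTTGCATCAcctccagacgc
Tars, position -15, chr15:11399655-11399684, minus strand: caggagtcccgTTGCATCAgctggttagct
Yars, position 4, chr4:129189895-129189924, plus strand: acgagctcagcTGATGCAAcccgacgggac

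In Yars the core reads TGATGCAA along the gene, and in the other 4 genes it is on the reverse strand and reads as TTGCATCA or TTTCATCA. The 5 genes with a core had log2FC values of 1.25 to 1.64 (median 1.53). The 8 cytosolic genes with an entry but no core, Dars, Eprs, Farsa, Farsb, Kars, Mars, Qars and Sars, had values of -0.18 to 1.19 (median 0.97). The ranges did not overlap, in a comparison of genes of 1 experiment that was not tested. Cars, Hars, Lars, Nars, Rars, Vars and Wars had no entry and are outside this split, with values of 0.09 (Vars) to 1.71 (Cars). Without a core, the 14 mitochondrial genes ranged from -0.71 to 1.68 and the 3 scaffold genes from 0.69 to 1.84. Both of these ranges reached above the highest gene with a core. The E-box was in 4 of 13 cytosolic genes (Aars, Farsb, Iars and Tars, with log2FC values of 1.16 to 1.53), in 1 of 14 mitochondrial genes (Ears2) and in 8.09% of all genes. The 9 cytosolic genes without it ranged from -0.18 to 1.64, which covered the genes with it.

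**Figure D3:**
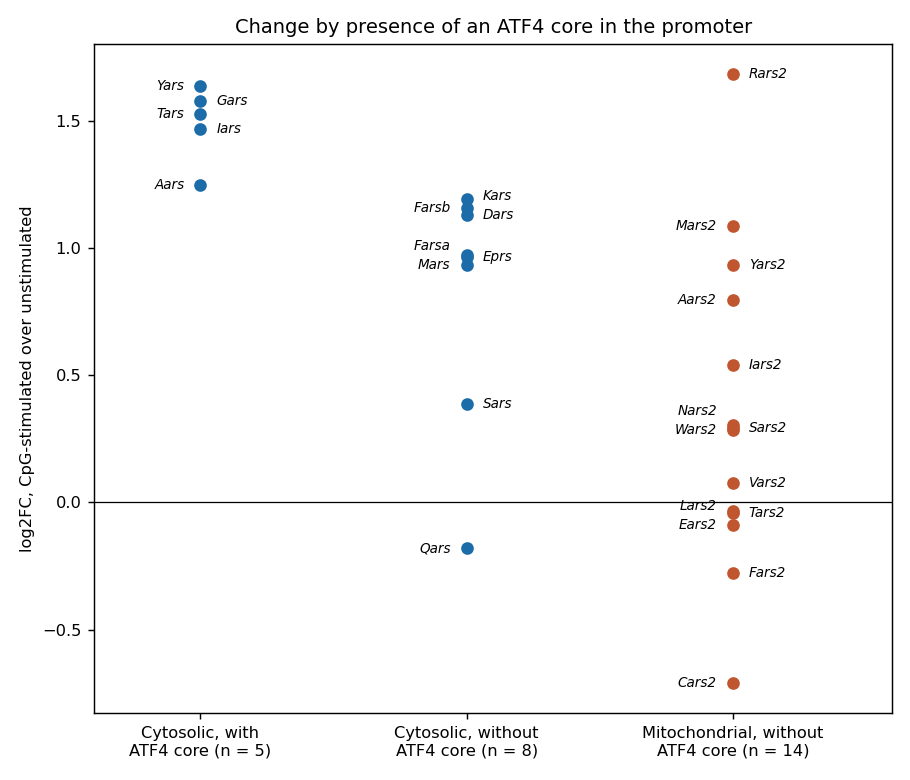
Log2FC (vertical axis) of the cytosolic and mitochondrial genes with a RefSeq promoter entry, with 1 point per gene. Genes are split by set and by the presence of the ATF4 core within 250 bases before and 50 bases after the start. The scaffold genes are not drawn. The 5 cytosolic genes with a core lie at 1.25 to 1.64, above the 8 without at -0.18 to 1.19, and none of the 14 mitochondrial genes has one.

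Aars, Iars and Tars held both motifs. In Aars and Iars the E-box, at positions -146 and -69, came before the cores listed above. In Tars the E-box, at position 20, came after the ATF4 core. The Tars window is shown whole, 5′ to 3′ on the gene's strand, with the motif letters in capitals.
Tars, chr15:11399609-11399908, minus strand: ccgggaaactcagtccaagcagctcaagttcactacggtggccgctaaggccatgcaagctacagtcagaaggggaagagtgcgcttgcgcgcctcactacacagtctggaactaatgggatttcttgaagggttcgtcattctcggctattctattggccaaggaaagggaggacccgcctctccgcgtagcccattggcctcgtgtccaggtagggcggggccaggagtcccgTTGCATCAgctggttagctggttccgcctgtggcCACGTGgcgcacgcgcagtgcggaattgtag

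The mitochondrial set held the widest range of changes. The 6 genes with the largest changes were Rars2, Mars2, Yars2, Aars2, Cars2 and Iars2, of which 5 rose and Cars2 fell. Rars2 (chr4:34614957-34660167, plus strand), the arginine enzyme, measured 5.22, 4.96 and 5.24 after CpG and 3.56, 3.30 and 3.51 without. Its log2FC of 1.68 ± 0.11 (SE; FDR = 4.40e-07) was near that of Cars, the largest of the cytosolic genes. Mars2 (chr1:55237177-55248470, plus strand), the methionine enzyme, measured 4.94, 4.87 and 4.89 after CpG and 3.76, 3.99 and 3.69 without, a log2FC of 1.09 ± 0.098 (SE; FDR = 3.71e-06). Yars2 (chr16:16302965-16309640, plus strand), the tyrosine enzyme, measured 5.47, 5.22 and 5.33 after CpG and 4.33, 4.56 and 4.32 without, a log2FC of 0.94 ± 0.099 (SE; FDR = 1.25e-05). The groups of all 3 genes were more than 0.5 log2 units apart.

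Aars2 (chr17:45506841-45520843, plus strand), the alanine enzyme, measured 3.91, 3.77 and 3.96 after CpG and 3.21, 2.92 and 3.12 without, a log2FC of 0.80 ± 0.12 (SE; FDR = 0.000125). Iars2 (chr1:185284726-185329396, minus strand), the isoleucine enzyme, measured 6.21, 5.98 and 6.18 after CpG and 5.56, 5.58 and 5.61 without, a log2FC of 0.54 ± 0.077 (SE; FDR = 0.000104). Of its 75-base stretches, 22.1% are shared with 2010103J01Rik or Rab3gap2, which lie on the opposite strand. Nars2 and Pars2, for asparagine and proline, rose by 0.30 and 0.38, and Sars2 and Wars2, for serine and tryptophan, by 0.29 and 0.28. The calls of several of these smaller increases did not hold when a sample was left out: the FDR rose above 0.05 for Sars2 without any of 4 samples and for Wars2 without any of 4, reaching 0.0922 and 0.129, and for Pars2 without CpG-stimulated replicate 1, at 0.0564. The log2FC stayed at 0.24 to 0.36 for Sars2, 0.22 to 0.38 for Wars2 and 0.33 to 0.40 for Pars2 over the samples left out. The count of increased mitochondrial genes was 6 without that replicate.

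Cars2, Fars2 and Hars2 fell. Cars2 (chr8:11513977-11550783, minus strand), the cysteine enzyme, measured 1.91, 1.98 and 2.18 after CpG and 2.57, 2.95 and 2.68 without. It was the most lowered of the 39 genes, with a log2FC of -0.71 ± 0.16 (SE; FDR = 0.00212). Hars2, the histidine enzyme, measured 5.18, 5.23 and 5.14 after CpG and 5.37, 5.44 and 5.47 without, a log2FC of -0.24 ± 0.070 (SE; FDR = 0.00967), while Hars, whose exons it overlaps by 195 bases on the opposite strand, rose. Fars2 (chr13:36117412-36726280, plus strand), the phenylalanine enzyme, measured 3.63, 3.65 and 3.69 after CpG and 3.89, 4.10 and 3.80 without, a log2FC of -0.28 ± 0.11 (SE; FDR = 0.0388). The call of Fars2 was lost without any of 5 of the 6 samples, with an FDR of up to 0.163. Cars2 and Fars2 overlap exons of other genes on the opposite strand by 422 bases (Naxd) and 616 bases (Lyrm4 and Nrn1).

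Lars2, Tars2, Ears2 and Vars2 did not pass the test. Lars2 (chr9:123366927-123462666, plus strand), the leucine enzyme, measured 9.70, 9.51 and 9.74 after CpG and 9.44, 9.79 and 9.82 without. Per kilobase it was the highest of the 16 mitochondrial enzymes in all 6 samples, with means of 7.72 without CpG and 7.69 with it. Whether all reads counted for Lars2 came from its mRNA was not tested. Its difference of -0.03 had a 95% interval of -0.27 to 0.21 (FDR = 0.801). Tars2 (chr3:95739976-95760206, minus strand), the threonine enzyme, measured 5.30, 5.22 and 5.12 after CpG and 5.27, 5.26 and 5.24 without, a difference of -0.04 with an interval of -0.21 to 0.12 (FDR = 0.622). Ears2 and Vars2, for glutamate and valine, differed by -0.09 (FDR = 0.509) and 0.08 (FDR = 0.457). The whole set summed to 1242, 1101 and 1255 CPM after CpG and 994, 1196 and 1204 CPM without, which overlapped. Without Lars2 the sums were 410, 372 and 398 CPM and 302, 310 and 300 CPM, a ratio of the means of 1.29 with no overlap.

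The NRF1 core was found in 3 of 14 mitochondrial genes (Rars2, Vars2 and Wars2), in 0 of 13 cytosolic genes and in 3.05% of all genes. The log2FC values of the 3 genes were 1.68, 0.08 and 0.28, and the 11 genes without the core ranged from -0.71 to 1.09. The core in Rars2, which had the largest change of the set, and that in Wars2 are shown with the core in capitals, on the gene's own strand:
Rars2, position -51, chr4:34614895-34614924, plus strand: cggccccgtgtGCATGCGCactccacactt
Wars2, position -64, chr3:99141015-99141044, plus strand: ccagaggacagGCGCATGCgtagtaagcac

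Setting the compartments side by side, 14 amino acids had a cytosolic and a mitochondrial enzyme of their own among these genes, with Farsa taken for phenylalanine. Eprs, which serves both glutamate and proline, was left out of the pairs: it rose by 0.96, beside -0.09 for Ears2, which did not pass, and 0.38 for Pars2. For each, the log2 ratio of the cytosolic to the mitochondrial enzyme was taken within a sample, and is described here without a test since it comes from the same values. The ratio was higher in every CpG-stimulated than in every unstimulated sample in 10 pairs, lower in 1, and overlapped in 3, with a median shift of 0.82. The largest shift was for cysteine, where Cars rose and Cars2 fell: the ratio was 5.09, 4.74 and 4.68 after CpG and 2.55, 2.16 and 2.54 without, a shift of 2.42. Threonine and leucine followed with shifts of 1.57 and 1.54, in which only the cytosolic enzyme passed the test. Histidine and phenylalanine had shifts of 1.39 and 1.25, in which the mitochondrial enzyme had fallen; for phenylalanine this is the shift of Farsa, and the other subunit, Farsb, rose by 1.16 against 0.98 for Farsa.

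Arginine went the other way. The ratio of Rars to Rars2 was 2.50, 2.6 and 2.34 after CpG and 2.89, 3.11 and 2.84 without, a shift of -0.47, as both enzymes rose and Rars2 rose more. In methionine, where Mars and Mars2 both rose, the ratio overlapped between the groups with a shift of -0.15. Serine, where both enzymes had small increases, and valine, where neither passed, had shifts of 0.09 and 0.01 and also overlapped. The remaining shifts were 1.09 for asparagine, 0.93 for isoleucine, 0.70 for tyrosine, 0.69 for tryptophan and 0.45 for alanine.

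**Figure D4:**
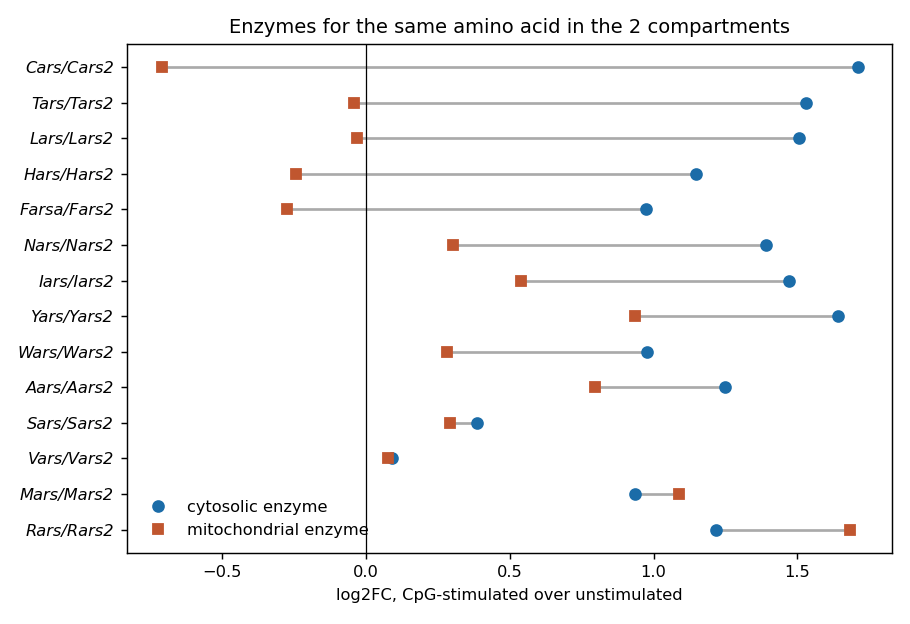
Log2FC of CpG-stimulated over unstimulated samples (horizontal axis) of the cytosolic enzyme (blue circle) and the mitochondrial enzyme (orange square) for each of 14 amino acids, joined by a line, with the largest difference at the top. Cars and Cars2 lie 2.42 apart, Vars and Vars2 nearly coincide, and in the bottom pairs, Mars/Mars2 and Rars/Rars2, the mitochondrial enzyme is to the right.

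Genes of neighbouring steps were read from 6 lists, whose counts stand beside the 37.6% of all genes tested that increased and the 36.7% that decreased. Nothing particular to a list was read from its counts. Of 14 other tRNA charging and proofreading genes, 10 increased, 0 decreased and 4 did not pass, with a median log2FC of 0.51. Among the largest changes were Dtd2 (1.62), which acts on mischarged tRNAs, and Mtfmt (0.93), which formylates the mitochondrial initiator tRNA. Of 18 tested genes of tRNA maturation and export, 13 increased, 2 decreased and 3 did not pass, with a median of 0.99. Pop1 (1.99) and Rpp40 (1.79), of RNase P, were among those that changed most, and the decreases were Elac1 (-1.58), a tRNA 3′ processing enzyme, and Tsen34 (-1.02), a subunit of the tRNA splicing endonuclease. The genes named here for a decrease, and those named without a call, were chosen after their values were seen.

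Elongation factors of the cytosol moved both ways. Of 6 genes, Eif5a (1.49) and Eef1d (0.66) increased, Eef2 (-0.41) decreased and 3 did not pass, with a median log2FC of 0.09. Among the 3 was Eef1a1, which delivers charged tRNAs to the ribosome: it held the same value, 14.01, in all 6 samples, the top value of the normalization, so that no change in it could be seen. Of 9 mitochondrial translation factors, 5 increased, 0 decreased and 4 did not pass, with a median of 0.58. The largest changes were in Tsfm (1.41), Gfm1 (1.13) and Tufm (0.97), all of mitochondrial elongation.

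Of 14 genes of ATF4 and the amino acid response, 10 increased, 2 decreased and 2 did not pass, with a median log2FC of 1.39. Asns (2.50), which makes asparagine, Chac1 (2.49), which degrades glutathione, and Trib3 (2.46), a pseudokinase that restrains ATF4, increased most. Atf4 itself measured 8.58, 8.75 and 8.59 after CpG and 8.63, 8.81 and 8.56 without, and did not pass (log2FC -0.03, FDR = 0.765). These are levels of its RNA, and the ATF4 protein was not measured. Cebpb was at -0.16 (FDR = 0.540). Ddit4 and Ddit3, stress response genes that ATF4 is known to induce, decreased, with log2FC values of -1.90 and -1.08, and Ddit3 and Mars overlap by 68 bases of exon on opposite strands. The list thus held genes that moved both ways.

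Of 10 amino acid transporters, 5 increased, 2 decreased and 3 did not pass, with a median log2FC of 0.62, against 37.6% increased and 36.7% decreased among all genes tested. Slc1a4 (3.06), a carrier of neutral amino acids such as serine and alanine, Slc7a5 (2.01), the large neutral amino acid carrier, and Slc7a1 (1.01), a carrier of arginine and lysine, increased most. Slc3a2, the partner chain of Slc7a5, was at -0.06 (FDR = 0.477). The decreases were Slc38a2 (-0.40) and Slc38a1 (-0.28), carriers of small neutral amino acids and glutamine.

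**Figure D5:**
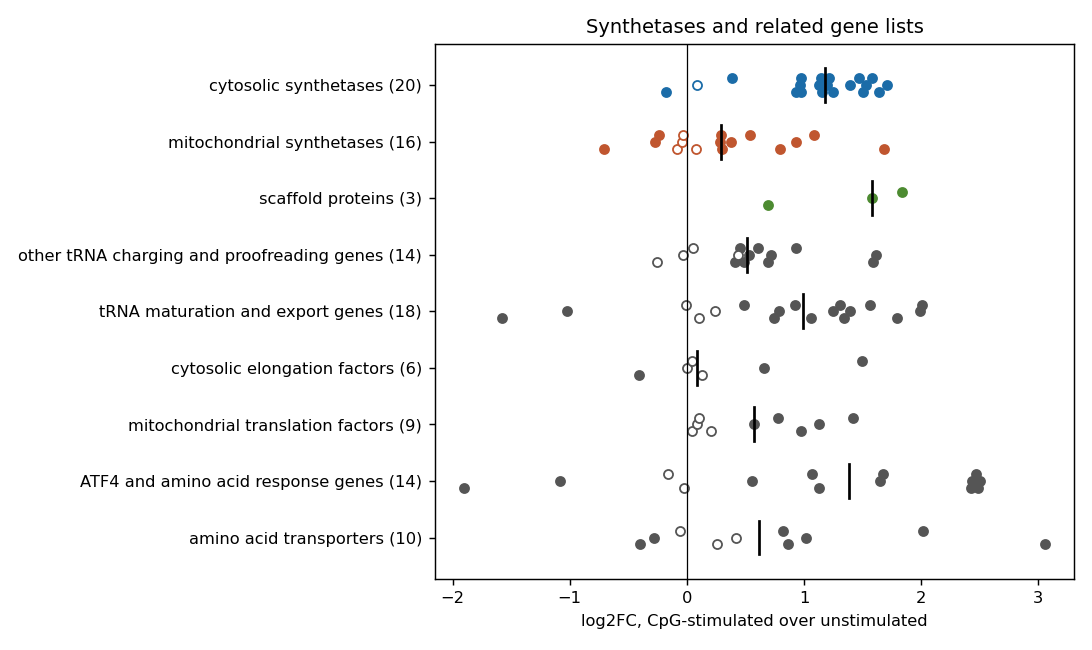
Log2FC (horizontal axis) of each tested gene in the synthetase sets and 6 related lists, with the number of genes in parentheses, filled points for an FDR under 0.05, open points otherwise, and a black bar at each list's median. The cytosolic synthetases cluster between 0.93 and 1.71 apart from Sars, Vars and Qars, while the ATF4 list runs from -1.90 to 2.50.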

How the data were processed

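RNA-seq data of BALB/c B cells were used, from 3 samples with CpG and 3 without, grouped by their labels. The authors aligned reads to mm10 (STAR 2.6.1a, after Trim Galore 0.6.5), counted them per gene with featureCounts (Subread 2.0.1), and deposited log2 CPM after quantile normalization and voom. The commonest value, -5.15, is where voom places a gene with no read (0.5 reads after its offset), and from it the level of 10 reads, -0.76, was computed.

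Linear models were fitted to the deposited values in limma 3.58.1 (R 4.3.3) with a variance trend, and groups were compared two-sided over 11233 genes above the level of 10 reads in at least 3 samples. The FDR is the Benjamini-Hochberg adjusted p over those genes. An exact permutation test of 3 against 3 cannot go below 0.1 and was not used. The fit was tested on simulated data. Alternatives were other filters, pseudocounts, variance models, centring, a replicate block and leaving out each sample.

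Deviations from the group means correlated between same-numbered samples (r = 0.43, 0.22 and 0.30 across genes) but not between others (-0.28 to 0.028). The labels do not say which samples share a mouse, so the main fit left the number out and an alternative used it as a block. The values also carry a shift by replicate number: when 1 sample of a number gained a read, its partner's value moved by 0.167 of that step (239 genes). Such a shift leaves the log2FC of all 6 samples unchanged. It enters the spread within groups, and so the SEs and FDRs, and the log2FC when a sample is left out. The size of its part in these and in the correlations was not tested.

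The genes and lists were chosen with earlier results of these data known. Values in every sample are given for the scaffold genes, the 6 largest and 2 smallest changes in each compartment, and each decrease; of each related list, the 3 largest changes past FDR 0.05 are named, except that some genes and a promoter stretch are not reported here. Gene positions and overlaps are from GENCODE on GRCm38, and promoters from RefSeq. Gatb and Rtcb are listed as Pet112 and D10Wsu52e, and Rpp25 was under the filter.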

Additional observations from a re-analysis of the deposited data

Results flagged for a closer look

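For Ears2 and Vars2, the pair of male samples differed in direction from both pairs of female samples, when CpG-stimulated and unstimulated samples of the same replicate number were set against each other. For Ears2, the mitochondrial glutamate enzyme, the log2 difference was 0.24 in the male pair and -0.22 and -0.28 in the female pairs. For Vars2, the mitochondrial valine enzyme, it was -0.011 in the male pair and 0.081 and 0.16 in the female pairs. The difference between the sexes was not tested: there was 1 male pair, which is also replicate 3, so that sex and replicate number cannot be told apart.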

How the results depend on the processing

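Stability was judged under all 13 alternatives (117 values of 9 results). The counts of increased and decreased synthetases and scaffold genes differed from the main counts by at most 1.5 times. The medians of the synthetases and the median shift between compartments kept their sign. They moved by less than the larger within-group SD of the sample medians. With the replicate block, 18 cytosolic and 9 mitochondrial synthetases increased and 3 mitochondrial ones decreased, and this fit changed the call of 0 of the 39 genes. Leaving out each sample gave 18 increased cytosolic, 6 to 9 increased mitochondrial and 2 to 3 decreased mitochondrial synthetases, and 13 to 17 cytosolic ones with a log2FC over 1.

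Of 507 values of single genes, 480 kept their call, 23 in 5 genes lost it (Qars, Fars2, Pars2, Sars2 and Wars2) and 4 changed sign in 2 genes that did not pass. Lars2 ranged from -0.16 to 0.039 over the samples left out, and was 0.039 without CpG-stimulated replicate 2, 0.023 without unstimulated replicate 2 and 0.038 without unstimulated replicate 3. Tars2 ranged from -0.089 to 0.0052, its value without CpG-stimulated replicate 3. Without the filter, Fars2 and Wars2 lost their calls (FDR = 0.0536 and 0.0602), and without the variance trend Qars and Wars2 did (FDR = 0.0713 and 0.0592). The cause was not tested. The depth of single samples could not be weighed, since quantile normalization set a common one.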
